A study of Mus musculus with 8 samples.

Results

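The blood-brain barrier set holds 10 of the 31053 genes in the count tables, chosen by name. These are Cldn5, Ocln, Tjp1 and Cdh5 of the cell junctions, and the transporters Slc2a1, Mfsd2a, Slc16a1, Abcb1a, Slco1a4 and Slco1c1. Their levels were read in endothelial cells and in 10 other cell types of the adult mouse dentate gyrus, in 2 single-cell RNA libraries. The Control library came from Nestin-GFP mice 15 days after a sham craniotomy. The TBI library came from Nestin-GFP mice 15 days after a controlled cortical impact on 1 hemisphere, which is a model of traumatic brain injury. The mice were 8 weeks old, the labels list 4 animals in each group (the methods of the study give other numbers), and the dentate gyrus of the injured or operated side was dissected. Cells of all animals of a condition were pooled, live GFP-positive cells were sorted, and their RNA was tagged at its 3′ end with unique molecular identifiers (UMIs), so a UMI stands for 1 captured RNA molecule.

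Levels are given as CPM, the UMIs of a gene scaled to a common total of UMIs in the cells of a type and library. Both conditions carry the same transgene, in which control elements of the nestin gene drive GFP, and the sort decided which endothelial cells entered the data. Nes was at 419.5 CPM in endothelial cells of the Control library and at 466 CPM in those of the TBI library. With 1 library of pooled animals per condition there was no replicate. No test between conditions was possible, and every interval given here is an exact 95% interval (Poisson for a level, binomial for a share or a ratio) that covers counting error only. The number of endothelial cells sorted is no measure of their number in the tissue.

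Endothelial cells of the brain seal the vessel wall with tight junctions, in which claudin-5 and occludin span the membrane and ZO-1, the product of Tjp1, ties them to the actin skeleton. VE-cadherin, the product of Cdh5, forms the adherens junctions. Since little passes between the cells, nutrients cross through transporters: Slc2a1 encodes the glucose transporter GLUT1, Mfsd2a a carrier of lysophosphatidylcholine lipids that also holds vesicle traffic low, and Slc16a1 the monocarboxylate transporter MCT1 for lactate and ketone bodies. Abcb1a encodes P-glycoprotein, which pumps drugs back into the blood, Slco1a4 encodes the organic anion carrier Oatp1a4, and Slco1c1 the thyroid hormone carrier Oatp1c1.

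Gene positions are those of GENCODE vM21 on GRCm38. Cldn5 is at chr16:18776847-18778262 on the plus strand and Slco1a4 at chr6:141805440-141856199 on the minus strand. Slco1c1, at chr6:141524368-141570177 on the plus strand, lies on the same chromosome as Slco1a4, and Slc16a1 is at chr3:104638668-104658462 on the plus strand. The 250 bases before the start were in the RefSeq promoter table (GRCm38.p6) for 9 of the 10 genes. They are shown for 4 genes that span the range of CG content: 2 of the 3 genes with none, Cldn5 between the ends and Slc16a1 with the most. CG pairs are in capitals, and each sequence runs 5′ to 3′ on the strand of its gene. The windows are chr6:141856221-141856470 (minus) for Slco1a4, chr6:141524104-141524353 (plus) for Slco1c1, chr16:18776597-18776846 (plus) for Cldn5 and chr3:104638414-104638663 (plus) for Slc16a1.
Slco1a4: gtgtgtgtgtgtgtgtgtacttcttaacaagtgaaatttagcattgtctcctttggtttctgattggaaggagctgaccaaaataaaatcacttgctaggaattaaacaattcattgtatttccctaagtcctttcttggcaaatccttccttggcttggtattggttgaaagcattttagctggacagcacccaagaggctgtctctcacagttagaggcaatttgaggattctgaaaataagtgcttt
Slco1c1: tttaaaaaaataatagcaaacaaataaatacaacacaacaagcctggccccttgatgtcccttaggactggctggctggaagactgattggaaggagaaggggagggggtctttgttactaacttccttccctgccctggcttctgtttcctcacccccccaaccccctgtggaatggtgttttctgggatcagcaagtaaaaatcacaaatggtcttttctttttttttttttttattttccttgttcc
Cldn5: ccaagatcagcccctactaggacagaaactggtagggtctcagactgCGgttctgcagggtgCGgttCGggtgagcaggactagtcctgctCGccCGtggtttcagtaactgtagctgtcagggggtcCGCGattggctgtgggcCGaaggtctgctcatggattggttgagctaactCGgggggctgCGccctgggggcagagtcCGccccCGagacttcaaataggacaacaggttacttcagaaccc
Slc16a1: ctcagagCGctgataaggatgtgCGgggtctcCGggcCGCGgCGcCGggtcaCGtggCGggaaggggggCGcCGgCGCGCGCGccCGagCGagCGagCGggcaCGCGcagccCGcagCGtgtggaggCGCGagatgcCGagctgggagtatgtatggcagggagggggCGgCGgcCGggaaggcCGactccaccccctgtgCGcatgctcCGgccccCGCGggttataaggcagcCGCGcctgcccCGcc

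The windows of Slco1a4, Slco1c1 and Abcb1a held 0 CG pairs, as did 7.87% of the 32851 windows of all genes, whose median was 6. The RefSeq start used for Abcb1a, with its window at chr5:8566841-8567090, lies far upstream of its GENCODE gene body (chr5:8660077-8748575). The CG count of Abcb1a describes that RefSeq start only. The RefSeq start used for Tjp1 lies inside its gene body (chr7:65296165-65527781, minus strand). The windows of Slc2a1 and of an Ocln start overlap the gene body in part. Cldn5 had 12 CG pairs, Slc2a1 13, Mfsd2a 17, Tjp1 22 and Slc16a1 37, which is more than in 97.8% of all windows. The 2 starts of Ocln had 14 and 22. The letters GGAA, the core of ETS factor motifs, occurred on either strand 8 times before Slco1c1 and 4 times before Slco1a4 but 0 times before Cldn5 and Slc2a1, and 93.4% of all windows held at least 1 match. The letters ACAAT, a SOX core, occurred on either strand in 1 of the 10 windows, that of Slco1a4, against 27.7% of all windows. These matches describe the letters of the windows and are not binding sites.

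Cells were clustered without the 10 genes and without 63 further barrier genes, so the levels described here did not define the cell types. The tables held 3086 barcodes for Control and 5081 for TBI, of which 3049 and 5036 were kept, with 24629521 and 31503415 UMIs and a median of 6928 and 5663 UMIs per cell. The 2 libraries shared 3 barcodes. Of the 8085 cells, 944 were endothelial-like, 292 in Control and 652 in TBI, with a median of 4525 and 3532.5 UMIs. All 8 endothelial markers used for naming were present in them. Flt1, a VEGF receptor, was at 4522 and 4829 CPM and Pecam1, the adhesion molecule CD31, at 606 and 627 CPM. A further 364 cells stayed in unnamed clusters.

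Among the junction genes, Cldn5 was at 9314 CPM (9152 to 9477) in Control endothelial cells and at 9871 CPM (9741 to 10001) in TBI endothelial cells. Every other type was at most 6.09 CPM in Control, the level of astrocytes, while TBI reached 268 CPM in smooth muscle cells, all of it from 1 cell. Ocln was at 318 CPM (288 to 349) in Control and 303 CPM (280.4 to 326) in TBI endothelial cells. Outside the endothelium Ocln did not exceed 10.6 CPM, a level that rested on 2 UMIs in Control microglia. Cdh5 was at 469 CPM (433 to 506) and 471 CPM (443 to 500.4), and the next type, fibroblasts, held 2 and 4 UMIs (49.3 and 52.8 CPM). These 3 genes thus had the endothelium far above each other type in both libraries.

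Tjp1 did not share that pattern. It was at 556 CPM (517 to 597) in Control and 548 CPM (517 to 579) in TBI endothelial cells, and at 425 CPM (377 to 478) and 401 CPM (372 to 431) in pericytes, the contractile cells that wrap capillaries. The endothelial and pericyte intervals did not overlap in either library, while those of pericytes and fibroblasts (246 and 383 CPM) did. In TBI the fibroblast interval (256 to 550.0) also overlapped the endothelial one. Oligodendrocytes (161 and 159.5 CPM) and astrocytes (151 and 151 CPM) followed, with intervals that overlapped each other. Neurons were lowest in both libraries, at 26.0 and 28.9 CPM. The endothelial level of Tjp1 was 1.31 times the pericyte level in Control and 1.37 times in TBI.

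**Figure D1:**
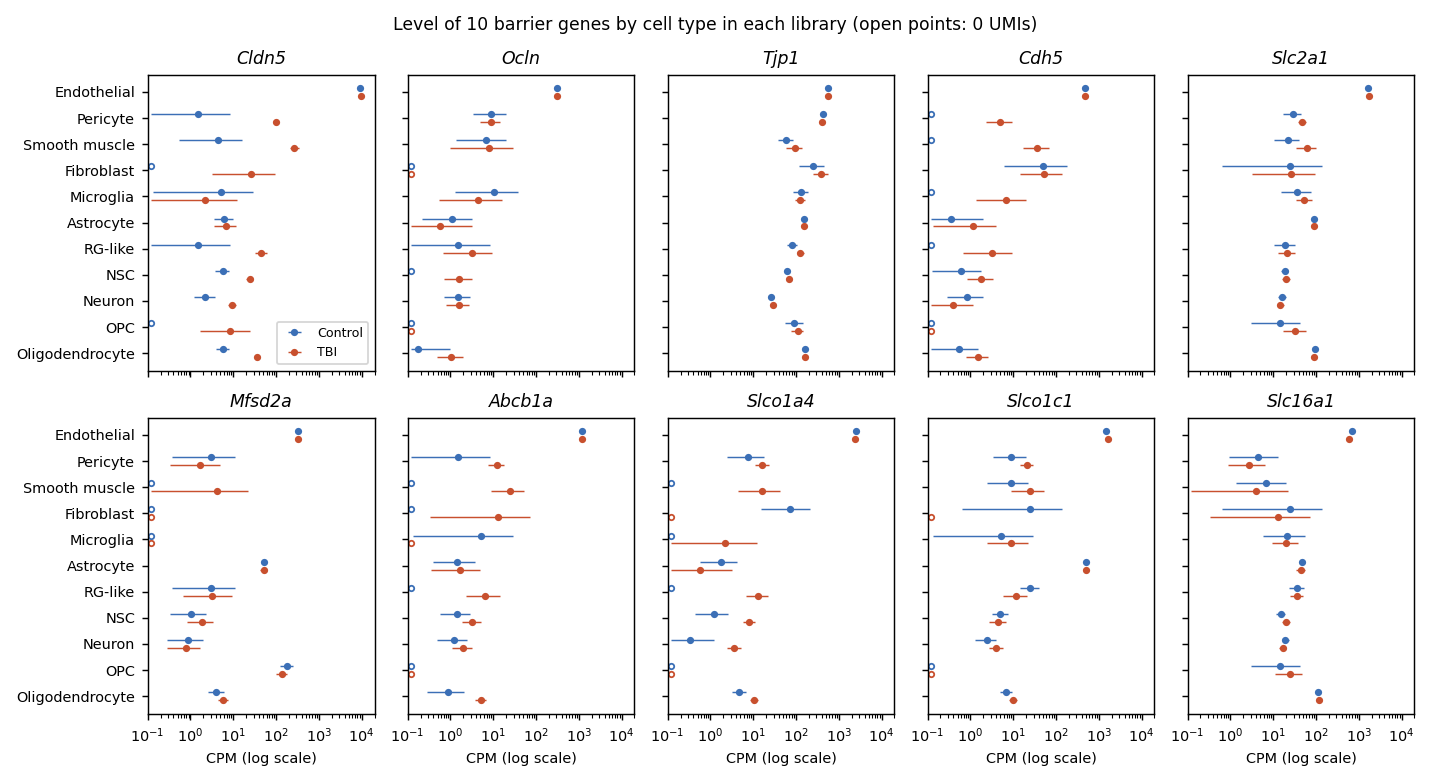
Level of each of the 10 genes in 11 cell types, in CPM on a log axis, for Control (blue) and TBI (red); bars are 95% Poisson intervals and open points at the left edge have 0 UMIs. The endothelium is at the right end in all 10 panels, Tjp1 in pericytes, Mfsd2a in OPCs and Slco1c1 in astrocytes come closest to it, and Cldn5 is the gene with the widest gaps between the libraries outside the endothelium.

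Of the nutrient transporters, Slc2a1 was at 1651 CPM (1583 to 1721) in Control and 1768 CPM (1713 to 1823) in TBI endothelial cells. Oligodendrocytes (93.4 and 90.9 CPM) and astrocytes (92.0 and 90.9 CPM) came next and did not differ from each other beyond their intervals. Mfsd2a was at 322 CPM (293 to 354) and 326 CPM (303 to 350.3) in endothelial cells. Its next type was oligodendrocyte precursor cells (OPCs), at 178 CPM (126 to 246) in Control and 137 CPM (102 to 180.4) in TBI, on 37 and 50 UMIs. Astrocytes held 51.9 and 51.1 CPM of Mfsd2a, and mature oligodendrocytes 4.05 and 5.78 CPM. Slc16a1 was at 688 CPM (645 to 733) in Control and 595 CPM (563 to 627) in TBI endothelial cells. Oligodendrocytes followed at 112 CPM (103 to 121) and 116 CPM (109 to 124), above astrocytes at 46.9 and 44.3 CPM, without overlap of these intervals. Glucose and lactate transporters were thus present in the endothelium, oligodendrocytes and astrocytes of both libraries, and Mfsd2a in the endothelium, OPCs and astrocytes.

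The efflux pump and the organic anion carriers split in the same way. Abcb1a was at 1183 CPM (1126 to 1242) in Control and 1184 CPM (1139 to 1229) in TBI endothelial cells, and did not pass 5.28 CPM in any other Control type or 24.4 CPM in any other TBI type. Slco1a4 was at 2482 CPM (2399 to 2567) and 2337 CPM (2274 to 2401), with a next Control value of 73.9 CPM on 3 UMIs in fibroblasts. Slco1c1 was at 1493 CPM (1429 to 1559.5) and 1626 CPM (1574 to 1679) in endothelial cells and at 491 CPM (465 to 518) and 502 CPM (469 to 536) in astrocytes. In all other types Slco1c1 stayed at or below 25.3 CPM. Reads of Abcb1a and Slco1a4 can be shared with close family members, and those were rare in endothelial cells: Abcb1b had 3 UMIs in each library, Slco1a5 0 and 1, and Slco1a1 and Slco1a6 0 in both.

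By a limit of 4-fold over the highest other type in both libraries, 7 of the 10 genes were endothelial-restricted, against 3.12% of the 5696 genes with enough UMIs in endothelial cells (100 or more). The 3 others were Tjp1, Mfsd2a (1.81 and 2.38 times OPCs) and Slco1c1 (3.04 and 3.24 times astrocytes). A limit of 10-fold also left out Cdh5 and Slc16a1.

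RNA set free by broken endothelial cells can enter any droplet. It was assumed, and not tested, that such RNA keeps its genes in 1 ratio in every cell type. The level of each gene in a type was therefore set as a percent of its endothelial level in the same library, beside the same percent for the 8 endothelial markers. The share of all genes that lie above these markers was not computed. A count of genes above them therefore cannot be read as particular to the barrier genes. In astrocytes the markers lay between 0 and 0.43% in Control and between 0 and 0.48% in TBI. Slco1c1 was at 32.9% and 30.9%, Tjp1 at 27.1% and 27.6%, Mfsd2a at 16.1% and 15.7%, Slc16a1 at 6.82% and 7.45% and Slc2a1 at 5.57% and 5.14%. The lower bound of each of these 5 genes was above all 8 markers in both libraries. In the same astrocytes Cldn5 was at 0.0653% and 0.0682%, within the range of the markers.

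In oligodendrocytes 4 of the 10 genes were above all 8 markers in both libraries: Tjp1 at 29.0% and 29.1%, Slc16a1 at 16.2% and 19.6%, Slc2a1 at 5.66% and 5.14% and Mfsd2a at 1.26% and 1.78%. In OPCs 2 genes were, Mfsd2a at 55.4% and 41.99% and Tjp1 at 16.5% and 20.0%. Neurons and neural stem cells (NSCs) had 3 each (Tjp1, Slc2a1 and Slc16a1), radial glia-like cells 2 (Tjp1 and Slc16a1). Pericytes, smooth muscle cells, fibroblasts and microglia had 1, which was Tjp1. In pericytes the highest marker was Erg on 1 UMI in Control (2.34%) and Tie1 on 14 UMIs in TBI (3.37%). Slc2a1 was at 1.74% and 2.73% there. For Cldn5, Ocln, Cdh5, Abcb1a and Slco1a4 no type outside the endothelium had a lower bound above all 8 markers in both libraries. Cdh5 in fibroblasts was itself at 10.5% and 11.2%, against a highest marker of 1.55% and 0.811%. It rested on 2 and 4 UMIs, and its lower bound passed the markers in TBI only.

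**Figure D2:**
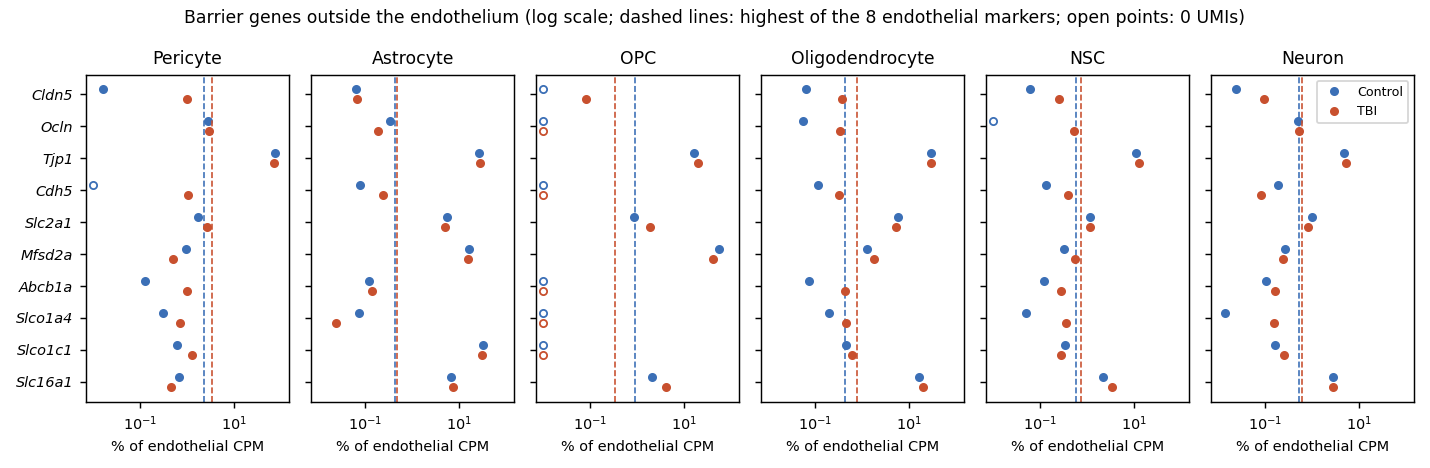
Level of each gene in 6 other cell types as a percent of its endothelial CPM in the same library, on a log axis, for Control (blue) and TBI (red). Dashed lines mark the highest of the 8 endothelial markers in that type. Tjp1 lies to the right of both lines in all 6 panels, and Slco1c1 does so in astrocytes, where it is at 32.9% and 30.9%.

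Endothelial transcripts outside the endothelium differed between the libraries. Cldn5 was at 1.51 CPM in Control pericytes (1 UMI) and at 97.7 CPM (83.8 to 113) in TBI pericytes (178 UMIs). In oligodendrocytes it was at 5.82 and 36.8 CPM, in NSCs at 5.64 and 24.4 CPM and in neurons at 2.22 and 9.39 CPM. Astrocytes did not share the difference, at 6.09 and 6.73 CPM. The summed level of the 8 endothelial markers was also higher in TBI in these types, at 144 and 251 CPM in pericytes, 23.4 and 55.2 CPM in oligodendrocytes, 30.4 and 54.0 CPM in NSCs, 22.2 and 35.2 CPM in neurons and 13.6 and 21.3 CPM in astrocytes, against 12822 and 13133 CPM in endothelial cells. It was higher in smooth muscle cells (17.8 and 378 CPM) and radial glia-like cells (31.2 and 77.4 CPM) as well. In fibroblasts (49.3 and 26.4 CPM), microglia (37.0 and 28.9 CPM) and OPCs (19.3 and 13.7 CPM) it was lower in TBI. Where the sum was higher in TBI, single markers did not all share this: Pecam1 was at 12.1 and 6.58 CPM in pericytes, and Egfl7 at 8.20 and 6.82 CPM in neurons. Erg, a defining marker, had 0 UMIs in Control oligodendrocytes and NSCs, and Tie1 had 0 in Control pericytes.

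Few cells held these transcripts. In TBI pericytes 23 of 629 cells had a UMI of Cldn5, and the 5 highest cells held 158 of the 178 UMIs. In TBI smooth muscle cells all 66 UMIs were in 1 of 40 cells. Cells called doublets by Scrublet, 38 of the Control and 109 of the TBI library, carried most of the UMIs in these TBI types. Without them Cldn5 was at 1.54 CPM in Control and 16.7 CPM in TBI pericytes, so a gap remained there. It was at 1.83 and 3.16 CPM in oligodendrocytes, 5.64 and 3.15 CPM in NSCs and 2.27 and 4.18 CPM in neurons. In Control NSCs 0 of 320 cells were called doublets, and 21 of the 28 UMIs of Cldn5 were in 1 cell. Without the 5 highest cells instead, Cldn5 in NSCs was at 0.618 CPM in Control and 2.86 CPM in TBI. Without the cells called doublets, Slco1a4 in TBI oligodendrocytes went from 10.6 to 0.973 CPM, and Abcb1a from 5.09 to 0.851 CPM. Without the 5 highest cells, Slco1a4 was at 3.49 CPM there and Abcb1a at 1.63 CPM.

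**Figure D3:**
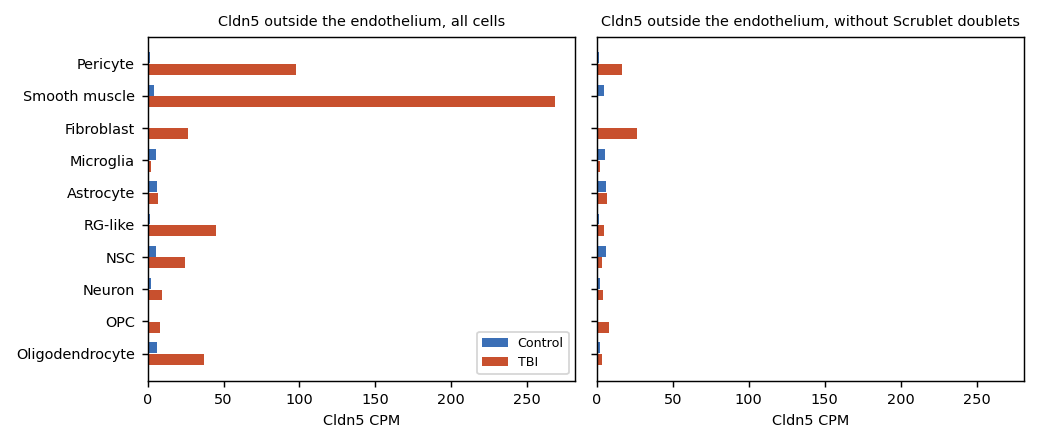
Cldn5 level in CPM in each type other than endothelium, for Control (blue) and TBI (red), with all cells (left) and without cells called doublets by Scrublet (right). The TBI bars fall from 97.7 to 16.7 CPM in pericytes and from 36.8 to 3.16 CPM in oligodendrocytes.

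The share of cells with a UMI was compared after each cell was thinned to 2000 UMIs, which left 251 of 292 Control and 545 of 652 TBI endothelial cells. All of them had a UMI of Cldn5, against 0.182% of 549 Control and 1.38% of 1012 TBI oligodendrocytes, whose median depths before thinning were 10251 and 8531 UMIs against 4891 and 3745 UMIs in endothelial cells. Slco1a4 was detected in 94.4% (90.8 to 96.9) of Control and 93.2% (90.8 to 95.2) of TBI endothelial cells, Slc2a1 in 92.8% and 91.9%, Slco1c1 in 88.4% and 89.7% and Abcb1a in 88.4% and 86.4%. In oligodendrocytes Slco1a4 was detected in 0.364% and 0.889% of cells. Tjp1 (61.4% and 62.6%), Cdh5 (60.6% and 58.0%) and Mfsd2a (40.6% and 42.02%) were detected in fewer cells, as were Slc16a1 (47.0% and 51.4%) and Ocln.

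Ocln was detected in 50.6% (44.2 to 56.9) of Control and 41.8% (37.7 to 46.1) of TBI endothelial cells, intervals that overlapped. Thinned to 1000 UMIs, the shares of Ocln were 24.9% and 25.2%. The median endothelial cell had UMIs of 7 of the 10 genes in both libraries. Cells with 3 or more of them made up 100% of Control and 99.3% of TBI endothelial cells, against 0 of 179 Control and 6 of 552 TBI pericytes (which allows up to 1.68% in Control). Slco1c1 was detected in 48.8% of Control and 52.2% of TBI astrocytes and in 0.707% and 0.602% of neurons, whose median depths were 10958 and 8186 UMIs against 4276 and 3592.5 UMIs in astrocytes.

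Summed over all endothelial cells, the 10 genes differed little between the conditions. No gene passed 1.5-fold in either direction, where 1.4% of the 5696 genes compared (100 UMIs or more, and no fewer than 10 from either library) were at least 1.5-fold higher and 0.93% at least 1.5-fold lower in TBI. With 10 genes, a count of 0 cannot be told apart from those shares. The median log2 ratio of TBI to Control was 0.0041 over the 10 genes and 0.014 over all genes tested, whose 5th and 95th percentiles were -0.37 and 0.40.

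The junction genes stayed near equality. The ratio of TBI to Control was 1.06 (1.04 to 1.08) for Cldn5, 0.953 (0.844 to 1.08) for Ocln, 0.985 (0.899 to 1.08) for Tjp1 and 1.01 (0.910 to 1.11) for Cdh5. Among the transporters it was 1.07 (1.02 to 1.13) for Slc2a1, 1.01 (0.898 to 1.14) for Mfsd2a and 1.00 (0.940 to 1.06) for Abcb1a. Slco1c1 had the highest ratio, 1.09 (1.03 to 1.15), and Slc16a1 the lowest, 0.864 (0.795 to 0.941), with Slco1a4 at 0.941 (0.901 to 0.983). The share of thinned endothelial cells with a UMI of Slc16a1, given above, was not lower in TBI. Each interval lay within 1.5-fold on both sides. These intervals leave out the spread between animals, which the pooling hid.

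**Figure D4:**
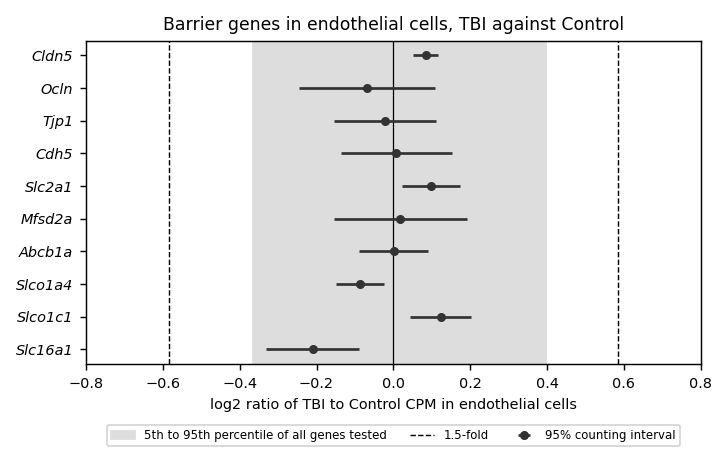
log2 ratio of TBI to Control CPM of each gene in endothelial cells, with 95% counting intervals. The grey band holds the 5th to 95th percentile of the 5696 genes tested (-0.37 to 0.40) and dashed lines mark 1.5-fold. All 10 genes and their intervals lie inside the band.

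Other values moved with the library in these cells, and their part in the ratios was not tested. The 4 hemoglobin genes summed to 9044 CPM in Control and 3003 CPM in TBI endothelial cells, and all 4 were lower in TBI. The 7 pericyte markers summed to 569 and 768 CPM, with 6 of 7 higher in TBI, against 33916 and 31602 CPM in pericytes. The 9 astrocyte markers summed to 428 and 303 CPM, and the 8 oligodendrocyte markers to 751 and 853 CPM. The 13 mitochondrial genes summed to 52813 and 47766 CPM, and all 13 were lower in TBI. The 15 immediate early and stress genes were close in both, at 18076 and 18767 CPM.

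Outside the endothelium, ratios were taken for genes with 100 UMIs or more in a type. Most of those that stood above the marker range did not differ between the libraries beyond counting error. Genes with fewer UMIs, such as Mfsd2a in OPCs (37 and 50 UMIs), were not compared. In astrocytes the ratio of TBI to Control was 1.02 (0.938 to 1.11) for Slco1c1, 0.984 (0.748 to 1.29) for Mfsd2a and 0.988 (0.807 to 1.21) for Slc2a1. In oligodendrocytes it was 1.04 (0.942 to 1.15) for Slc16a1, 0.973 (0.871 to 1.09) for Slc2a1 and 0.990 (0.910 to 1.08) for Tjp1. In pericytes Tjp1 was at 0.942 (0.820 to 1.08). Among the compared genes above the marker range, 1 of the many intervals left out equality. It was that of Tjp1 in radial glia-like cells, at 81.8 CPM in Control and 126 CPM in TBI. The ratio there was 1.54 (1.11 to 2.16) on 55 and 117 UMIs. It was past 1.5-fold and above the ratio of 98.2% of the genes compared in that type. The share of all genes whose interval left out equality was not computed. Slc2a1 in pericytes, which was not above the marker range, had a ratio of 1.68 (1.01 to 2.92) on 19 and 88 UMIs. The top of that range rested on 1 UMI in Control.

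The list of 63 further barrier genes was read in the same way. Of these, 45 had enough UMIs in endothelial cells, and their median log2 ratio was -0.015. In either direction 0 passed 1.5-fold, where 1.4% of all genes compared were higher and 0.93% lower. With 45 genes, a count of 0 cannot be told apart from those shares. By group, 8 of 13 junction genes, 17 of 21 transporters and receptors, 3 of 4 vesicle and leak genes, 15 of 18 Wnt and other regulators and 2 of 7 activation genes could be compared. The lowest ratio was that of Sox18, an endothelial transcription factor, at 0.673 (0.581 to 0.780), with 258 CPM in Control and 174 CPM in TBI. The highest was that of Vcam1, an adhesion molecule for leukocytes, at 1.44 (1.03 to 2.05) on 50 and 119 UMIs. Their log2 ratios, -0.57 and 0.53, lay outside the 5th to 95th percentile of all genes tested (-0.37 to 0.40). Both were named after their values were seen.

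Of the genes linked to leak or activation, Plvap, which forms the diaphragms of fenestrated vessels, had 2 UMIs in Control and 0 in TBI endothelial cells, which allows up to 1.33 CPM in TBI. The selectins Sele and Selp had 0 in both. Other genes of these groups were expressed. Cavin2 was at 477 CPM in Control and 595 CPM in TBI, with a ratio of 1.247 (1.135 to 1.372). Cav1 was at 290 and 244 CPM, with a ratio of 0.841 (0.737 to 0.959). These 2 intervals left out equality, in opposite directions. The intervals of Cavin1, at 0.928 (0.813 to 1.06), and Icam1, at 0.892 (0.692 to 1.15), included it. Abcg2, a second efflux pump, was at 904 and 916 CPM, the transferrin receptor Tfrc at 569.9 and 547 CPM, and the amino acid transporter Slc7a5 at 697 and 739.6 CPM. Of the 45 genes, 16 were endothelial-restricted by the 4-fold limit, against 3.12% of the 5696 genes with enough UMIs.

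Endothelial cells were not alike in these genes. Clustered again, without the 10 genes and the 63 further ones, they fell into 5 subclusters. One subcluster of 207 cells was arterial-like, led by Gkn3, Vegfc, Bmx and Sema3g, with 7 arterial markers at a summed 1247 CPM against 74.1 CPM in the largest subcluster of 345 cells. The latter was led by Car4 of the capillary markers and by stress genes such as Hspa1b and Jun. The capillary markers summed to 6093 CPM in the arterial-like and 7439 CPM in the largest subcluster.

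Slc16a1 differed most between them. It was at 245 CPM in the arterial-like and 871 CPM in the largest subcluster of Control, a ratio of 0.281 (0.219 to 0.357). In TBI the values were 189 and 826 CPM, a ratio of 0.229 (0.186 to 0.279). It was the single gene of the 10 that was at least 1.5-fold lower in both libraries, where 3.7% of 3699 genes were, and 0 of the 10 were at least 1.5-fold higher, where 4.03% were. In the first clustering, of all cells, the arterial-like cluster held 251 CPM of Slc16a1 over both libraries, and the largest other endothelial cluster 811 CPM.

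The other genes differed less. Mfsd2a had an arterial-like to largest subcluster ratio of 0.399 (0.287 to 0.545) in Control and 0.719 (0.587 to 0.877) in TBI, and Slco1a4 of 0.633 and 0.729. Cldn5 was at 0.797 and 0.763 of the largest subcluster. Slc2a1 went the other way, at 1.35 (1.22 to 1.49) in Control and 1.20 (1.11 to 1.29) in TBI. For Tjp1, Cdh5 and Abcb1a the intervals included equality in both libraries. Slco1c1 and Ocln each included equality in 1 library.

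**Figure D5:**
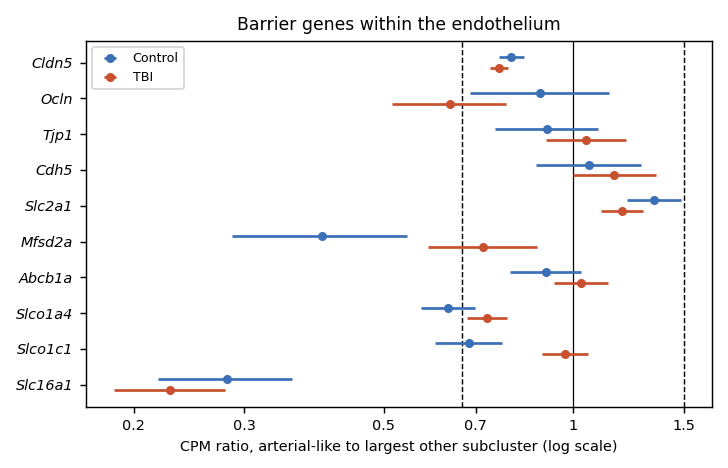
Ratio of CPM in the arterial-like subcluster (207 cells) to CPM in the largest other endothelial subcluster (345 cells) on a log axis, for each gene in Control (blue) and TBI (red), with 95% counting intervals. Dashed lines mark 1.5-fold. Slc16a1 is at 0.281 and 0.229, to the left of all others, and Slc2a1 lies above 1 in both libraries.

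The arterial-like subcluster made up 19.2% (14.8 to 24.2) of Control and 23.2% (20.0 to 26.6) of TBI endothelial cells. The largest subcluster, with which it was compared, made up 45.2% (39.4 to 51.1) and 32.7% (29.1 to 36.4), intervals that did not overlap. These are shares of cells in 1 pooled and sorted library per condition, so a difference between the conditions was not tested. Within the subclusters, the TBI to Control ratio of Slc16a1 was 0.947 (0.846 to 1.06) in the largest, 0.922 (0.781 to 1.09) in the next and 0.771 (0.574 to 1.04) in the arterial-like one, and each of these intervals included equality. Slco1c1 had a ratio of 0.939 (0.865 to 1.02) in the largest subcluster against 1.28 (1.14 to 1.43) in the next and 1.33 (1.18 to 1.51) in the arterial-like one. The ratios past 1.5-fold that follow were picked from those of all the barrier genes in every subcluster. The share of all genes past 1.5-fold within a subcluster was not computed, so they are given as values only. Mfsd2a passed 1.5-fold in the arterial-like subcluster, at 153 CPM in Control and 252 CPM in TBI, a ratio of 1.65 (1.19 to 2.33) on 48 and 156 UMIs. The largest and the other 3 subclusters were given no name. One, of 126 cells, had a median of 995.5 UMIs and was led by hemoglobin genes, and there Cldn5 was at 4096 CPM in Control and 6572 CPM in TBI, a ratio of 1.60 (1.34 to 1.93) on 143 and 719 UMIs. Ocln there had a ratio of 2.55 (1.01 to 8.29) on 5 and 40 UMIs, and Mfsd2a one of 0.665 (0.322 to 1.45) on 12 and 25 UMIs. Another, of 34 cells, was led by mural and astrocyte genes such as Vtn and Aldoc, and Ocln had a ratio of 0.536 (0.306 to 0.944) there on 26 and 30 UMIs. The third, of 232 cells, was led by Igfbpl1, Sox11 and hemoglobin genes. Igfbpl1 was among the markers used here to name neurons, and Sox11 among those for NSCs.

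Over the 11 cell types of both libraries (22 points, each a sum over the cells of a type that share a library), the genes most alike in level to each of the 10 were found among 12035 genes by Pearson's r of log2(CPM + 10), given as a description. Abcb1a was most like Pglyrp1 (0.99), Srarp and Clic5, and Slco1a4 most like Cyyr1 (0.99), Ushbp1 and Ptprb. Cldn5 was most like Abcb1a (0.97), Adgrl4 and Mmrn2, Ocln like Pecam1 (0.99), She and Nos3, and Cdh5 like C130074G19Rik (0.98), Tdrp and Kank3. For Slc2a1 they were Nos3 (0.93), Nod1 and Kdr.

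Slco1c1 was most like S1pr1 (0.93), Alpl and Foxo1, Mfsd2a like Ccdc85a (0.91), Nebl and Slc1a1, and Slc16a1 like Mylpf (0.93), Bche and Sema7a. Tjp1 had the loosest match, with Pdxk (0.88), Rhoa and Sri.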

How the data were processed

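The authors aligned the reads with Cell Ranger 3.0.2 to GRCm38/mm10, per the labels and the study's methods, and deposited unnormalised UMI counts per gene and cell, 1 table for each condition. Which table holds which condition was checked with the cell barcodes that the study lists: 356 of 356 Control and 320 of 320 TBI barcodes were in the table of that condition and 0 in the other. Barcodes were kept with 200 genes or more and a log UMI total no further than 3 median absolute deviations from the median of their library, and Malat1 was left out. They were clustered in Seurat 5.3.0 after the study's settings (20 CCA dimensions, 2000 variable genes, 20 components, resolution 3.0) and again within the endothelium (30, 16, resolution 0.8), and clusters were named by lists of markers. Doublets were called by Scrublet (scanpy 1.11.5) but kept in the values, except where stated. UMIs were summed over the cells of a type in a library and given as CPM. The depth was 24629521 UMIs over 3049 Control cells and 31503415 UMIs over 5036 TBI cells. A type with 0 UMIs of a gene was taken to allow up to 3. Genes were compared between conditions when they had 100 UMIs or more, with no fewer than 10 from either library, and between subclusters with at least 50 UMIs in each library and 5 in each subcluster. No test was run, since each condition was 1 library. The ratio rule and its intervals were tested on simulated data. Those counts were Poisson draws of summed UMIs, as the intervals assume, so the test does not cover unevenness between cells. The genes and lists were chosen with earlier results of these data known. The plan was to name the 10 genes, the genes of the wider barrier list past 1.5-fold (there were 0) and the 3 genes most alike to each of the 10. The wider-list genes given values, such as Sox18, Vcam1 and Cavin2, were named outside that plan. Others whose intervals of the TBI to Control ratio left out equality were not named in the Results. Among these were F11r at 0.831 (0.713 to 0.970) and Fzd4 at 1.28 (1.06 to 1.55). The alternatives covered the clustering, the filters on cells, doublets, scaling and the limits. UMIs at the 3′ end do not give levels per length, so levels were compared between cells and not between genes.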

Additional observations from a re-analysis of the deposited data

Results flagged for a closer look

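With cells called doublets kept, Slco1a4 went opposite ways in endothelial cells and oligodendrocytes. Its ratio of TBI to Control was 0.941 (0.901 to 0.983) in endothelial cells and 2.24 (1.44 to 3.57) in oligodendrocytes, where it rested on 27 and 92 UMIs, and the difference was not tested. Without cells called doublets by Scrublet, Slco1a4 was at 1.28 CPM in Control and 0.973 CPM in TBI oligodendrocytes, so the higher TBI level was not seen there.

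Cells of the unnamed clusters, which belong to no cell type of the report, held endothelial transcripts above the level that a count of 0 allows. Cldn5 was at 157 CPM in the 166 such cells of Control and at 85.7 CPM in the 198 of TBI. Slco1a4 was at 39.4 and 11 CPM there, and Abcb1a at 22.5 and 11 CPM.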

How the results depend on the processing

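No paired analysis was possible because the cells of all animals of a condition were pooled, so that the animal numbers in the labels belong to no cell. No replicate could be left out, since each condition was 1 library. Under all 16 alternatives for the comparison of the conditions, 0 of the 10 genes passed the fold limit in either direction, and their median log2 ratio stayed between -0.075 and 0.022. Its lowest value came with endothelial cells taken as those with a UMI of Flt1 and of Pecam1, where the log2 ratio of Slco1c1 was 0.03, against 0.12, and that of Cldn5 0.0094, against 0.08. The 2-fold limit and the looser UMI filters used the same ratios of the 10 genes. These settings could not raise the count of the 10 genes or move their median. The number of all genes past 1.5-fold moved more. It was 80 higher and 53 lower, 188 and 57 with those cells, 132 and 97 with the mean of CPM over cells, 363 and 216 with subclusters weighted equally, 581 and 479 with at least 20 UMIs, 1391 and 1695 with no filter beyond 1 UMI in each library, and 15 and 7 past 2-fold. The restricted genes numbered 7 under 10 of the 12 alternatives, 8 (with Slco1c1) at 2-fold and 5 at 10-fold. The log2 ratio of Slc16a1 between the arterial-like and the largest other subcluster was -1.83 in Control and -1.45 with the first clustering of all cells. Of the values of single genes and of all genes, 292 stayed within their interval or within 1.5 times and 70 moved. The shares of cells with a UMI depend on depth. That of Ocln was 65.4% in Control and 59.8% in TBI endothelial cells without thinning. The leaving out of low-UMI or mixed endothelial cells, of an oligodendrocyte cluster and of doublets in subclusters, and the first-clustering contrast, were chosen after seeing the data. The subcluster of 232 cells led in part by neuron and NSC markers was not among the mixed cells left out.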
